A study of Homo sapiens with 4 samples.

Results

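The 8 genes described here encode giant proteins that cross-link or scaffold the cytoskeleton, the plasma membrane, the synapse or the mitotic spindle: AHNAK, AHNAK2, DST, PLEC, MACF1, FLNA, PCLO and NUMA1. They are 8 of the 10140 genes in an m6A peak list from MDA-MB-231, a human cell line derived from triple negative breast cancer. The genes were chosen by the number and the scores of their peaks in this list, so those values are a description and no test was run on them. They held 106 of the 20261 listed peaks, which is 0.523%. After same-gene peaks that shared at least 1 base had been merged, 100 of 20019 peaks remained.

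In m6A-seq, fragmented poly(A) RNA is immunoprecipitated with an antibody against N6-methyladenosine, and a peak is a stretch of transcript with more reads in the immunoprecipitate (IP) than in the input. The series held 2 input and 2 IP libraries, all 4 from cells labelled shNS, with no other treatment or genotype given. The titles and protocol name an anti-m6A antibody for the IP libraries, whereas their treatment field names YTHDC1, and the titles were followed. The 4 libraries had been combined into 1 list with 1 score per peak, so there is no value for a single library, no spread between replicates, no read depth and no expression level, and neither the cell line nor the abundance of a transcript could be checked. A gene with little RNA and a gene with little m6A cannot be told apart in such a list.

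m6A is placed on nascent mRNA by the METTL3-METTL14 methyltransferase at adenosines in the RRACH context, and it is known to be dense in long internal exons and around stop codons. Several of the genes here are textbook cases of long exons. AHNAK and AHNAK2, a pair of related scaffold nucleoproteins, are each encoded largely by 1 very long exon made of repeats, and plectin, the plakin encoded by PLEC, has a long exon for its rod domain and another for its C-terminal repeats. Dystonin (DST) and MACF1 are spectraplakins, which link actin to microtubules, filamin A (FLNA) cross-links actin filaments, piccolo (PCLO) organises the presynaptic active zone, and NUMA1 focuses microtubules at spindle poles.

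Scores were taken to be p-values of the peak caller, so a smaller score is a stronger peak, and a score of 0 is one too small to be stored. The median score of the list was 5.2e-08, and peaks at or under it are called strong here. AHNAK held 22 merged peaks, more than any other gene of the list. AHNAK2 held 21 and came second, DST held 18 and came next, and PCLO held 17, tied with FAT1 and ZFHX3, a giant cadherin and a giant zinc finger factor. PLEC held 10, MACF1 6, NUMA1 4 and FLNA 2. The median over the 8 genes was 13.5 merged peaks, against 2 over all listed genes. At least 5 merged peaks were found in 6 of the 8, and in 5.36% of the listed genes. Of the 8 genes, 7 were on the minus strand, where listed genes had a mean of 2.18 merged peaks, against 1.58 on the plus strand.

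**Figure D1:**
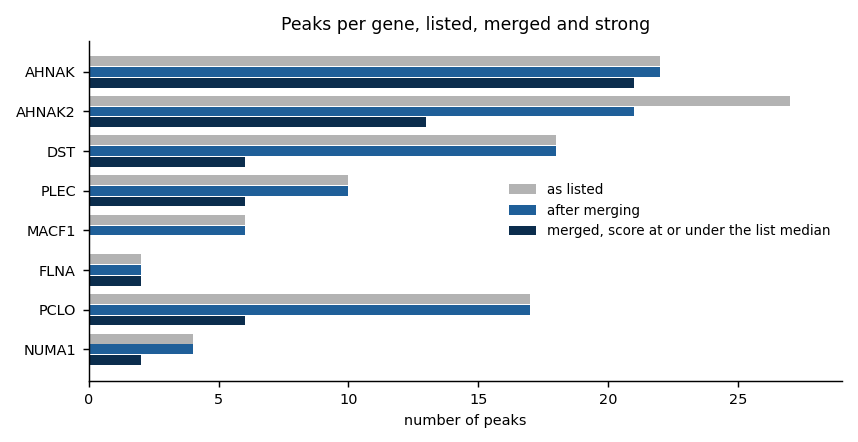
Horizontal bars give the number of peaks per gene as listed (grey), after merging (blue) and after merging with a score no larger than the list median of 5.2e-08 (dark). Only AHNAK2 lost peaks on merging, from 27 to 21, and MACF1 has no dark bar because none of its 6 peaks was strong.

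The number of peaks and their strength did not rank the genes alike. Of the 100 merged peaks, 56 were strong, a share close to the 50.0% of the whole list. AHNAK alone supplied 21 of them, with AHNAK2 giving 13, DST, PLEC and PCLO 6 each, FLNA and NUMA1 2 each and MACF1 none. Without AHNAK the strong share was 44.9% (35 of 78), and without both AHNAK genes it was 38.6% (22 of 57). On the minus strand, where 7 of the 8 genes lie, 56.7% of the merged peaks of the list were strong, against 32.5% on the plus strand. A peak at or under the median was found in 7 of the 8 genes, and in 60.7% of listed genes. With a median of 13.5 merged peaks per gene against 2, the 8 genes had more chances to hold such a peak. Scores of 0 were held by 5 peaks (5.00%, against 2.27% of the list), 2 in AHNAK, 2 in PLEC and 1 in NUMA1. Of the 17 peaks that reached 1e-100 or less, 9 were in AHNAK. The share of the whole list at that score was not counted, so the 17 have no base for comparison.

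**Figure D2:**
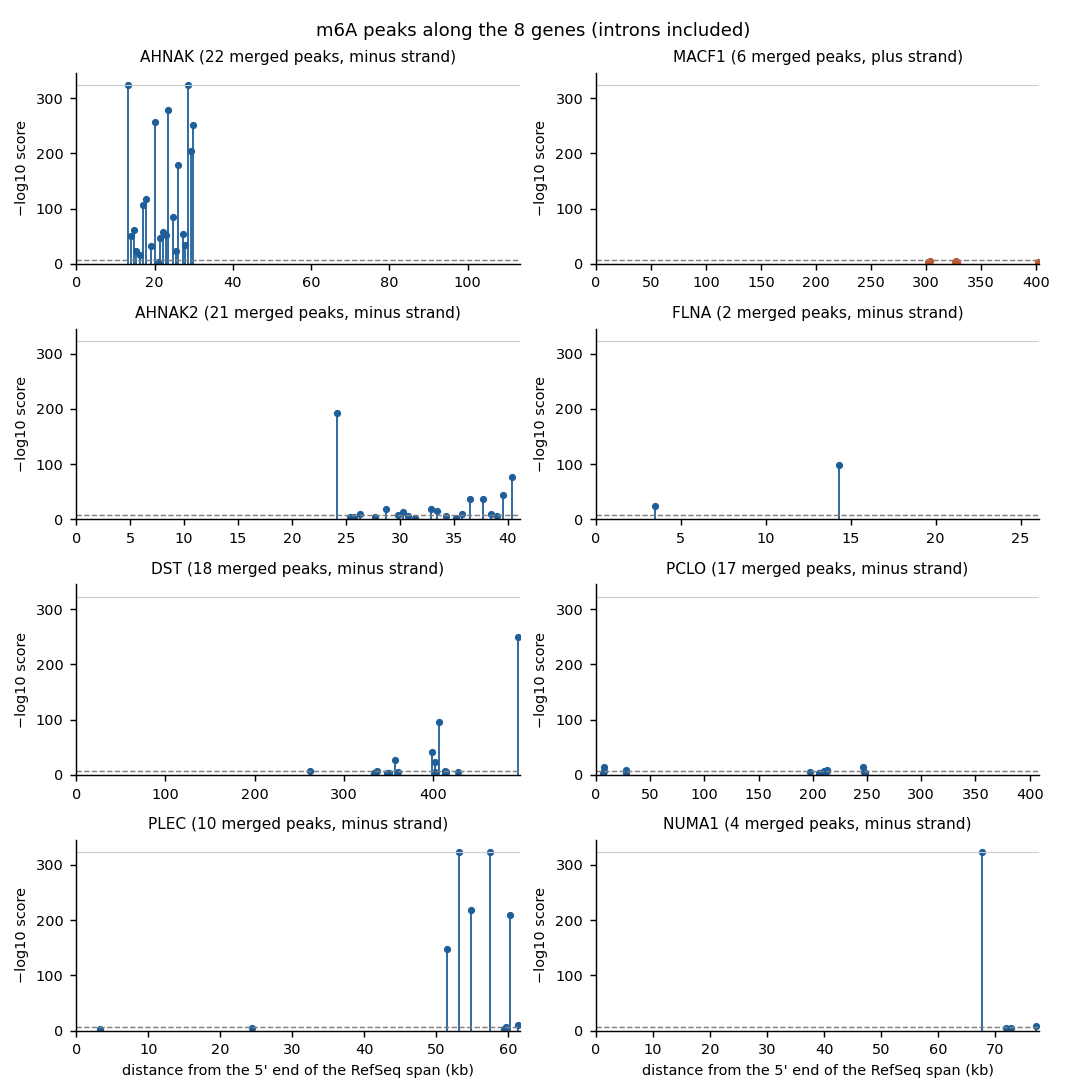
Each panel places the merged peaks of 1 gene by the distance of their midpoint from the 5′ end of the RefSeq gene span (kb, introns included), with −log10 of the score as height, minus-strand genes in blue and plus-strand MACF1 in red. The dashed line is the list median and the upper line marks scores of 0, which are drawn at 323. AHNAK peaks stand together in 1 stretch near the 5′ end of its span, DST peaks lie in the last part of its span, and PCLO peaks form 2 widely separated sets.

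AHNAK (ENSG00000124942.14, chr11, minus strand) had the most peaks and the most strong ones. Its 22 peaks formed a single run, that is, a series in which neighbours lie at most 1000 bases apart, over chr11:62516832-62534047 on GRCh38. The run was 17.2 kb long and had its first and last peak midpoints at 11.5% and 26.3% of the 113 kb span of the gene. It had the most peaks among the 3506 runs of more than 1 peak in the list. Peaks covered 53.6% of it, at 1.28 peaks per kb. Each of the 22 peaks was a single block, meaning that it did not cross an intron.

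The AHNAK peaks were closely but not evenly spaced. The long exons of AHNAK and AHNAK2 are made of repeats, and reads that match several places were allowed in the alignment. Whether reads were shared between repeats, and so between peaks, was not tested. Gaps between neighbours ranged from 59 to 869 bases with a median of 269, and midpoints of neighbouring peaks were 480 to 1304 bases apart with a median of 735. The peaks themselves covered 61 to 1261 bases (median 391). The strongest were a peak of 601 bases at the 5′ edge of the run (chr11:62533447-62534047) and one of 841 bases near its 3′ edge (chr11:62517881-62518721), both with a score of 0. Between them lay a peak of 391 bases with a score of 1e-278 and the longest peak, of 1261 bases, with 1e-257, so that very strong peaks were spread over the whole run and not gathered at one edge. The median score was 5e-58, and the 1 peak that was not strong was 61 bases long with a score of 0.00059, only 59 bases from the longest peak. The first peak of the run was 11779 bases downstream of the RefSeq start site, and 83.3 kb of the span after the run held no peak. The span is the outer bound of the gene, and where the transcript that carries these peaks ends was not determined.

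AHNAK2 (ENSG00000185567.7, chr14, minus strand), the paralog of AHNAK, had nearly as many peaks, most of them much weaker. The 21 merged peaks lay between chr14:104937671 and 104954862, in the 3′ part of a 41.1 kb span, at 5.11 peaks per 10 kb of span, the highest value of the 8 genes. Their median score was 2.2e-10, and 13 were strong. The strongest was the 5′-most and longest, with 1469 bases and a score of 1e-192, and it held 19.1% of the 7687 bases covered. From there to the 3′ end followed peaks of 61 to 780 bases, among them 2 that covered 61 bases at 0.0038 and 0.0068. The 3′-most peak, of 683 bases at 7.9e-77, ended 418 bases from the 3′ end of the span, so AHNAK2 was strongest at both ends of its peak series and weaker between them.

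The peaks of AHNAK2 fell into 3 runs, of 11 peaks over 7964 bases, 6 peaks over 3746 bases and 4 peaks over 2937 bases. The gaps that parted the runs were 1347 and 1198 bases, the other 18 of 20 were at most 1000 bases, and the median gap was 328. The run of 11 had 1.38 peaks per kb with 54.3% of its bases covered, values close to the 1.28 per kb and 53.6% of the AHNAK run, and it was the second largest of the list. The 3′-most peak shared 91 bases with a peak of PLD4 on the opposite strand, a phospholipase family gene, and those 91 bases were the whole PLD4 peak.

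AHNAK2 was also the only 1 of the 8 genes listed in 2 places. The list runs through the chromosomes once, with 19516 peaks, and then starts again with 745 further peaks of 306 genes, 169 of which are also in the first part. AHNAK2 had 5 peaks in the first part, within the last 3302 bases of the peak series, and 22 in the second, over 17170 bases. Of 6 overlaps between the parts, 5 paired peaks with close scores, such as 7.9e-77 and 6.3e-75 for peaks that shared 636 bases, or 4.5e-06 in both for peaks that shared 148. The sixth, of 44 bases, paired scores of 5e-38 and 1.3e-14. The first part alone therefore gives AHNAK2 5 merged peaks in place of 21, and the 1e-192 peak comes from the second part only.

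**Figure D3:**
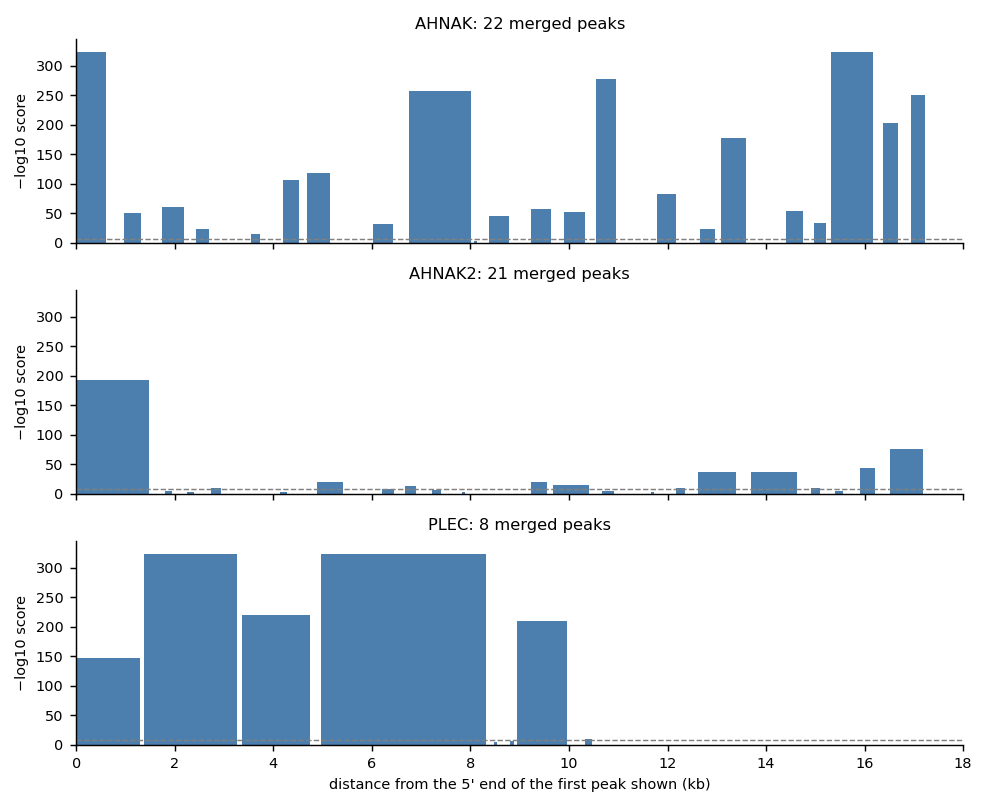
Bars show each merged peak of AHNAK, of AHNAK2 and of the PLEC run to scale, with width as its extent and height as −log10 of its score (scores of 0 drawn at 323), against the distance from the 5′ edge of the first peak shown (kb), and the dashed line marks the list median. AHNAK keeps tall bars along all 17.2 kb, AHNAK2 is tall mainly at its edges, and PLEC is filled by a few long peaks that leave little uncovered.

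Among the plakins, PLEC (ENSG00000178209.15, chr8, minus strand) had fewer but much longer peaks than the AHNAK genes. Of its 10 peaks, 8 formed a run of 10477 bases at the 3′ end of the gene, and 87.3% of that run was covered. The run held 2 peaks with a score of 0, of 3357 and 1889 bases, and peaks of 1289 bases at 1e-219, 1020 bases at 1e-210 and 1290 bases at 1e-147. These 5 long peaks made up 93.9% of the 9420 bases covered in PLEC. The other 5 covered 61 to 211 bases and were weaker, with scores of 3.2e-10, 2e-07, 5.4e-05, 0.00022 and 0.0038. Gaps inside the run were as short as 59 bases, and joining peaks at most 100 bases apart lowered the count of PLEC from 10 to 7.

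The run of PLEC came within 234 bases of the 3′ end of the span. Outside it, the gene had 1 peak 3.25 kb from the 5′ end and 1 that joined 2 blocks across an intron, both weak. Length and score went together in PLEC, since every long peak scored 1e-147 or less and every short one 3.2e-10 or more.

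DST (ENSG00000151914.20, chr6, minus strand) carried its 18 peaks over a far longer stretch. All 18 had their midpoints between 52.7% and 99.7% of a 497 kb span, and only 6 were strong. The strongest was the 3′-most, at chr6:56458886-56460169, with a score of 1e-250 over 421 bases in 2 blocks, 890 bases from the 3′ end. The next were 3.2e-97, 1.3e-41, 6.3e-27, 2.5e-23 and 3.7e-08, and the other 12 ranged from 8.1e-08 to 0.001. DST was thus led by 1 peak at the 3′ end, with the rest weaker by many orders of score.

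DST peaks were also spread into more pieces. Only 7 of the 17 gaps were at most 1000 bases, and the median gap was 1348 and the largest 72235. The peaks fell into 11 runs if each lone peak is counted as a run. The largest run, of 7 peaks at chr6:56540455-56553369, was 12.9 kb long, but peaks covered just 12.6% of it. It held 1 peak that joined blocks of 346 and 14 bases across an intron, within a stretch of 9735 bases. DST had 5 such peaks in 2 blocks, in which the shorter block was 14 to 39 bases. Of the 3 RefSeq start sites of DST, the most downstream had 17 of the 18 peaks after it, the nearest 22480 bases away.

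MACF1 (ENSG00000127603.28, chr1, plus strand), the closest relative of DST, had 6 peaks and none was strong. From 5′ to 3′ the scores were 0.00076, 1.9e-06, 0.0017, 8.3e-06, 0.0011 and 0.00058. All were single blocks of 91 to 211 bases and together covered 876 bases, which is 0.217% of its 403 kb span, against 0.854% for DST. Their places resembled those of DST, with the midpoint of the first peak at 74.8% of the span and the last peak 1251 bases from the 3′ end. The most downstream of 3 RefSeq start sites lay 1156 bases before the nearest peak, and 4 of the 6 peaks came after it.

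MACF1 was the only 1 of the 8 genes on the plus strand. In the whole list 65.3% of genes were on the minus strand. The median of the smallest score per gene was 4e-22 for minus-strand genes and 1e-06 for plus-strand genes, 56.7% and 32.5% of merged peaks were strong, and genes had 2.18 ± 1.54 and 1.58 ± 0.988 merged peaks (mean ± SD over genes). The smallest score of MACF1, 1.9e-06, was close to the median for its strand, but it was the smallest of 6 peaks, more than the mean of 1.58. None of the 6 was strong, against 32.5% of plus-strand peaks. Strand and gene cannot be told apart as the source of the contrast between MACF1 and DST.

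FLNA (ENSG00000196924.18, chrX, minus strand) had the fewest peaks of the 8, and both were strong. The peak nearer the 5′ end covered 211 bases at chrX:154371074-154371284 with a score of 4e-25, and the other 331 bases at chrX:154360124-154360454 with 1.3e-99. They were 10619 bases apart in a span of 26.1 kb, and the last peak was 11593 bases from the 3′ end, so FLNA had no peak near its 3′ end.

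PCLO (ENSG00000186472.20, chr7, minus strand) was the reverse of FLNA, with many peaks and none of great strength. Its 17 peaks were all single blocks of 61 to 600 bases, the best scores were 5e-15 and 1.6e-14, the median 5.5e-06 and the weakest 0.0019, and 6 were strong. They fell into 2 sets parted by 168301 bases, 5 with midpoints in the first 10% of the 409 kb span and 12 with midpoints between 48% and 61% of it. The first set held peaks of 571, 570 and 600 bases with scores of 1.1e-08, 1.6e-14 and 8.9e-09. The second held the strongest, of 361 bases, and at most 4 peaks in a run. No peak was found in the last 161 kb. PCLO is known mainly from neurons, and the list gives its peaks but not its level in these cells.

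NUMA1 (ENSG00000137497.17, chr11, minus strand) had most of its covered bases in 1 peak. This peak, at chr11:72009320-72016497, had a score of 0 and covered 3777 bases in 5 blocks, of 90, 3366, 184, 69 and 68 bases from 5′ to 3′, which is 90.6% of the 4170 bases covered in the gene. The block of 3366 bases (chr11:72012895-72016260) was the longest in the 8 genes. The other 3 peaks covered 91, 151 and 151 bases with scores of 0.00017, 2.7e-05 and 1.2e-08, and the last of them was 479 bases from the 3′ end. The midpoints of all 4 lay between 87.1% and 99.3% of the 77.7 kb span.

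The long NUMA1 peak overlapped, over part of its length, a shorter peak of the opposite strand. It shared 1970 bases with a peak of ENSG00000251143, of 2057 bases and also with a score of 0, at chr11:72014291-72016347. That is 95.8% of the shorter peak, and its start is the RefSeq start site of NUMA1-AS1, an antisense gene. The 3′-most NUMA1 peak shared 139 bases, 92.1% of the shorter, with a peak of IL18BP, which encodes an interleukin-18 binding protein. Over the 8 genes, 3 of 100 merged peaks shared a base with an opposite-strand peak, against 10.0% of the list, and 2 of the 3 were in NUMA1. To which strand the reads of these peaks belong cannot be told from the list.

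A stretch of the long NUMA1 block is shown because the RefSeq start-site window of NUMA1-AS1 (GRCh38.p14) lies wholly inside it, which gives the letters under a peak with a score of 0. It is 300 bases at chr11:72014041-72014340, read here on the minus strand as in NUMA1 mRNA, 5′ to 3′. Capitals mark matches to RRACH, that is, 2 purines, then AC, then any base but G.
NUMA1: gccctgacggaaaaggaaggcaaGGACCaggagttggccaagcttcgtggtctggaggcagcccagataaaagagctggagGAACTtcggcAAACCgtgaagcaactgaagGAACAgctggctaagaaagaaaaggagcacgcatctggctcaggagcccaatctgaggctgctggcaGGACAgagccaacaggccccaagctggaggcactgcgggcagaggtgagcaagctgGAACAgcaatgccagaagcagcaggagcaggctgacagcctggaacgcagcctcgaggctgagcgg
The window held 6 such matches, at positions 24, 82, 92, 112, 179 and 235 counted from 1 at its 5′ end, and none was GGACT, a common form of the motif. Of 35116 RefSeq start-site windows of the same length, read on the strand opposite to their gene, 94.7% held at least 1 RRACH match with a median of 3, and 15.0% held 6 or more. GGACT was found in 25.3% of them on that strand and in 44.2% on either strand. These windows lie around gene starts, so their shares are not a background for exons or for peaks. The first 50 bases, with the match at position 24, are shared with the opposite-strand peak, and the other 250 lie in the NUMA1 peak only. A match of letters is not a methylated site, and positions of m6A inside a peak were not measured.

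Across the 8 genes, most peaks were single blocks and most lay close to a neighbour. The closeness rested on the AHNAK genes. A single block was found for 91 of 100 merged peaks (91.0%, 95% Wilson interval 83.8 to 95.2), against 82.0% of the list, and 5 of the 9 others were in DST. Of 92 neighbouring pairs, 65 were at most 1000 bases apart (70.7%, interval 60.7 to 79.0), against 50.9% of pairs in the list. The intervals cover counting error only and treat peaks of 1 gene as independent, which they are not. They are no test against the list, because the genes were chosen by the number and the scores of their peaks. AHNAK gave 21 of 21 close pairs and AHNAK2 18 of 20. Without both, 26 of 51 pairs were close, which is 51.0% and close to the list. The share of single blocks without both was 86.0% (49 of 57), nearer to the 82.0% of the list. PLEC had 7 of 9, PCLO 9 of 16, DST 7 of 17, NUMA1 2 of 3, MACF1 1 of 5 and FLNA 0 of 1.

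The median gap was 403 bases over the 8 genes (quartiles 239 and 1236). In the 538 other genes with at least 5 merged peaks it was 672 (quartiles 209 and 5021), and 56.5% of their 2688 pairs were close. AHNAK and AHNAK2 supplied 21 and 20 of the 92 gaps of the 8 genes, with medians of 269 and 328. Without both, 51.0% of 51 pairs were close, below the 56.5% of those other genes. The smaller median gap of the 8 genes therefore rested on the AHNAK genes. With all 8 genes included, the upper quartile parted these sets more than the lower one. The starts of neighbouring listed peaks differed by a whole number of 30-base steps, within 1 base, in 21 of 21 pairs of AHNAK and in 66 of 97 pairs of the 8 genes, against 31.8% of pairs in the list. A sliding window of the peak caller gives such steps, as long as no intron comes between, so peak edges are known only to that step.

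**Figure D4:**
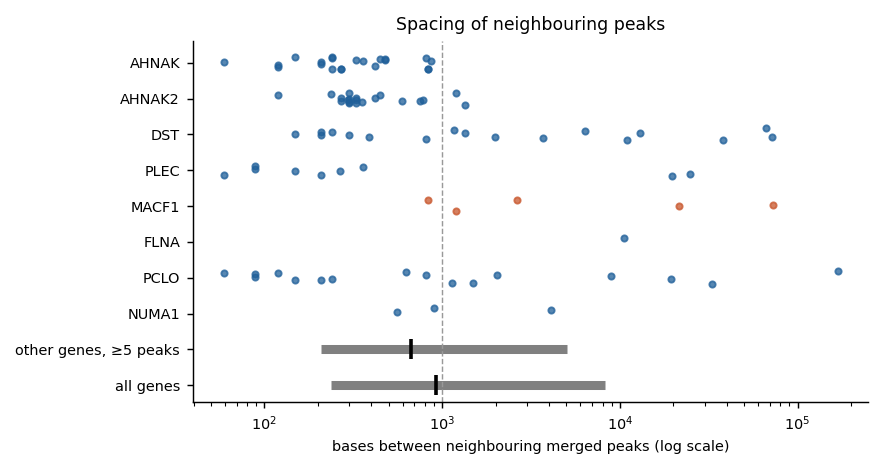
Each point is the gap between 2 neighbouring merged peaks of a gene, in bases on a log axis, with MACF1, on the plus strand, in red and points moved up or down only to separate them. Grey bars give the quartiles and black ticks the median of the other genes with at least 5 merged peaks (672 bases) and of all genes (927 bases). All AHNAK gaps lie left of the dashed line at 1000 bases, while the largest gaps of DST, MACF1 and PCLO are 72235, 73107 and 168301 bases.

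Long peaks and 3′ ends set the genes apart as well. Peaks that covered at least 1000 bases numbered 8 of 100 (against 2.92% of the list), with 5 in PLEC and 1 each in AHNAK, AHNAK2 and NUMA1, and these 8 made up 37.4% of the 41070 bases covered. The last peak ended at most 2000 bases from the 3′ end of the span in 5 genes, AHNAK2, DST, PLEC, MACF1 and NUMA1, a feature of 49.9% of 7094 listed protein-coding genes. AHNAK, PCLO and FLNA were the 3 whose last peak was farther, at 83.3 kb, 161 kb and 11.6 kb. Per 10 kb of span the protein-coding genes had a median of 0.518 merged peaks, with quartiles of 0.208 and 1.36. PLEC with 1.62, AHNAK with 1.94 and AHNAK2 with 5.11 were above the upper quartile, MACF1 with 0.149 was below the lower one, and DST had 0.362. Pooled over the 8 genes the density was 0.614, a value set mostly by the spans of DST, PCLO and MACF1. Spans include introns, and the length of exons was not used here. They are also the outer bounds of a gene, so the transcript that carries the peaks can end well inside them. Distances to the 3′ end, places within the span and densities of AHNAK, PCLO and FLNA hold for the span only.

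Related cytoskeletal and scaffold genes were then counted, 55 in all, and are called relatives here. Some are plakins, filamins, active zone scaffolds or coiled-coil scaffolds, as members of the 8 are. The others are from families that hold none of the 8, such as spectrins and myosins. At least 1 peak was found in 37 of the 55, a strong peak in 24 and at least 5 peaks in 11, and the median over those with a peak was 3. Every listed gene has a peak, so the 37 are the base for comparison. Of listed genes, 60.7% had a strong peak and 5.36% at least 5 peaks. Close pairs made up 49.0% of their 104 pairs, near the 50.9% of the list. None of the 55 had as many peaks as PCLO, DST or the AHNAK genes. Whether a gene without a peak was expressed is not known from the list.

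Each of the 4 other plakins had peaks. PPL and EVPL, the cornified envelope plakins periplakin and envoplakin, had 3 and 4, with 1 long peak each of 1378 and 1648 bases and best scores of 4e-40 and 2.5e-60. Peaks of at least 1000 bases were found 5 times in PLEC. DSP, the desmosomal plakin desmoplakin, had 4 with a best score of 1.1e-07, and epiplakin (EPPK1), built from plakin repeats, had 5 with a best score of 0.00014, so neither had a strong peak. FLNC, the filamin of muscle, had 3 peaks with a best score of 3.2e-12, weaker than either peak of FLNA. FLNC and DSP lie on the plus strand.

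Of the 7 active zone relatives of PCLO, 4 had peaks and none had more than 3. ERC2, a scaffold that binds piccolo, had 3 with a best score of 1.6e-13, UNC13A and ERC1 had 2 each and UNC13B 1. BSN, which encodes bassoon, the closest relative of piccolo, had none, nor had RIMS1 or RIMS2. The 17 peaks of PCLO thus outnumbered those of all 7 together.

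All 6 mitotic, nuclear or Golgi coiled-coil genes listed beside NUMA1 had peaks. GOLGB1, which encodes the Golgi protein giantin, came nearest to the AHNAK pattern, with 11 peaks, 10 of them in a run of 7302 bases with 1.37 peaks per kb and 52.6% covered, behind only AHNAK and AHNAK2 in the list. ASPM, a spindle pole protein, had 8 peaks with a best score of 1e-121, and TPR of the nuclear pore 2 with 1e-147. CENPF and PCNT had 4 each and CENPE 2.

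Other cytoskeletal families held some genes with strong peaks and many without a peak. MAP4, a microtubule-associated protein, had 8 with a best score of 1e-287, and CLIP1, which binds growing microtubule ends, 6 with 1e-194. The nonmuscle myosin heavy chains MYH10 and MYH9 had 9 peaks with a best score of 1.3e-75 and 6 with a best score of 0. Of 7 spectrins 4 had peaks, and of 3 talin and vinculin genes 2, led by TLN1, which couples integrins to actin, with 3 and 1e-59. Peaks were found in 2 of 3 nesprins, 2 of 3 ankyrins and 2 of 5 A-kinase anchoring scaffolds. The dystrophins DMD and UTRN had no peak.

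**Figure D5:**
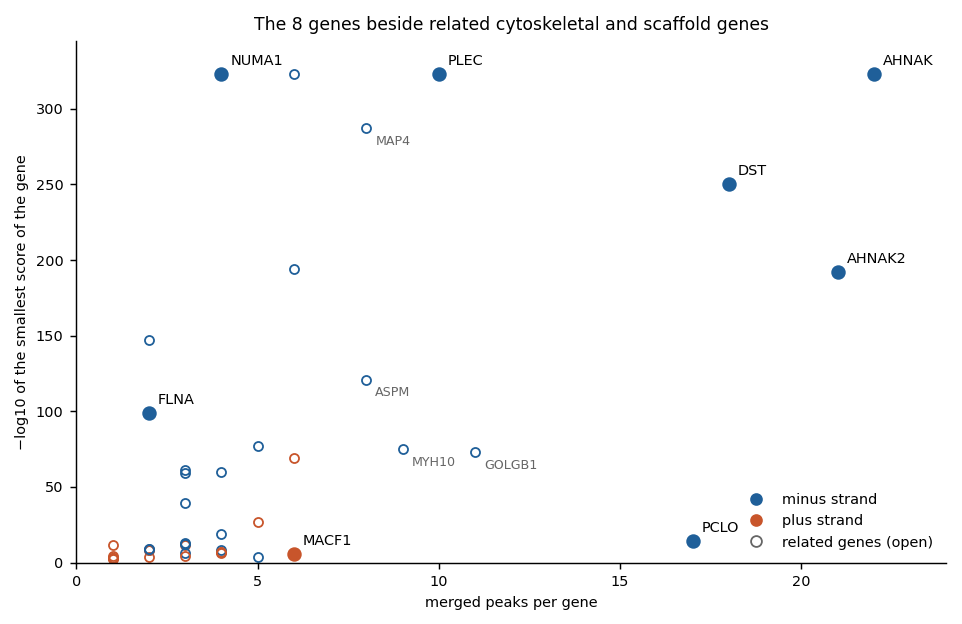
Each point is a gene, with its number of merged peaks on the horizontal axis and −log10 of its smallest score on the vertical axis (scores of 0 drawn at 323), the 8 genes as filled and the 37 relatives with a peak as open circles, minus strand in blue and plus strand in red. AHNAK, AHNAK2 and DST stand to the upper right, PCLO has 17 peaks at a low score, and NUMA1 reaches the top with 4.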

How the data were processed

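MDA-MB-231 cells labelled shNS gave 2 input and 2 anti-m6A IP libraries of poly(A) RNA. Per the submitters' processing notes and the methods of the study, the authors checked reads with FastQC, aligned them with STAR on hg38 with a GENCODE annotation, allowing reads that match several places, called peaks with exomePeak at default settings, and kept those that passed thresholds on FDR and fold enrichment. The deposited list gives 1 p-value per peak as its score. The header does not say that it is a p-value, and it could be an FDR of the same caller. Replicates had been combined, depth is unknown, and 0 columns belonged to samples of other series.

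Ensembl IDs were matched without version to symbols, which succeeded for 10103 of 10140. Same-gene, same-strand peaks that shared at least 1 base in their blocks were merged and given their smallest score. Coordinates are written from 1. Gene spans and start sites came from RefSeq on GRCh38.p14, whose gene ends can differ from GENCODE. Coding and exon lengths were intended as denominators, but an exon map and protein lengths were not used here, so the span of the gene was taken in their place, and the intended choice of similar genes by protein length was not made. Named genes were the 8 genes, a list of relatives by family, and the genes with the most peaks, and some relatives are counted in totals but not reported singly here. The 8 genes and the list of relatives were chosen with earlier results of these data known. Python 3.11.15, pandas 2.3.3, numpy 2.4.6, scipy 1.17.1 and matplotlib 3.10.9 were used, and merging was tested on simulated peaks. A total of 10 alternatives were tried.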

Additional observations from a re-analysis of the deposited data

How the results depend on the processing

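No paired analysis was possible because all 4 libraries share 1 score per peak, and for the same reason no library could be left out. Restricting the list to strong peaks lowered the total from 100 to 56 and the density from 0.614 to 0.344 peaks per 10 kb of span. It kept 13 peaks of AHNAK2, 6 each of DST, PLEC and PCLO, 2 of NUMA1 and 0 of MACF1. Using only the first part of the list left 84 peaks in all and 5 of AHNAK2. Dropping those that overlapped the opposite strand left 97 and 2 of NUMA1. The share of close pairs, 70.7%, was 56.5% at a limit of 500 bases and 79.3% at 2000. Some alternatives were chosen after seeing the data. Among these, leaving out AHNAK lowered the strong share from 56.0% to 44.9%, and leaving out both AHNAK genes gave 57 peaks, 0.387 per 10 kb, 51.0% close pairs and 38.6% strong peaks. The share in a single block stayed between 86.0% and 91.8% under every alternative run for it. The lowest value was that without both AHNAK genes, against 82.0% of the list. A denominator of coding or exon length was not run.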
